A study of Mus musculus with 31 samples.

Results

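The respiratory chain and ATP synthase of the inner mitochondrial membrane are built from nuclear-encoded and mitochondrially encoded proteins. The nuclear-encoded genes were taken here as all gene symbols that begin with Nduf followed by a, b, c, s or v, with Uqcr or with Atp5, that equal Sdha, Sdhb, Sdhc or Sdhd, or that begin with Cox4 to Cox8 followed by a, b or c. Of the 23509 genes in the count files, 90 matched, and 87 of them had at least 10 counts in at least 5 mice; Cox6a2, Cox7b2 and Cox8c did not. Assigned by symbol and textbook role, these 87 members comprise 43 genes of complex I, 4 of complex II, 8 of complex III, 15 of complex IV and 17 of complex V. The complex I group holds 7 catalytic core subunits, 29 accessory subunits and 7 assembly factors (Ndufaf1 to Ndufaf7). Ndufa4, first described in complex I, was counted with complex IV, together with its paralog Ndufa4l2 and the supercomplex factor Cox7a2l. Atp5s and Atp5sl were counted with complex V by their symbols, although Atp5sl, also called Dmac2, is known as an assembly protein of complex I. The patterns do not reach Cox4i1, Cox4i2, cytochrome c1 (Cyc1) or cytochrome c (Cycs), which are given as neighbours, and mitochondrially encoded subunits were not analysed here.

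Kidney RNA was compared among 3 groups of mice harvested at 30 weeks of age. Wild-type mice were untreated CD1 animals (n = 5). The other two groups were Pcy/CD1 mice, which carry the pcy allele on the CD1 background and develop polycystic kidneys. They received subcutaneous PBS (n = 12) or 25 mg/kg RGLS4326 once a month from 5 weeks of age (n = 14). RGLS4326 is a short chemically modified oligonucleotide that binds the seed of miR-17. The labels give the PBS schedule as weekly in one field and monthly in another. PBS mice carry both the allele and the injections, so the comparison of PBS with wild-type mice cannot separate these. The CD1 stock is outbred. Whole kidney was sequenced, so fewer cells of a type and less RNA per cell cannot be told apart in any value below. Wild-type mice 3 and 4 were closer to each other than any other pair within a group. Chi-square per gene between their counts was 2.69, against 16.05 to 22.55 for the other wild-type pairs. The lowest values among PBS and RGLS4326 pairs were 4.91 and 7.02. Whether both libraries come from the same animal or from relatives was not tested. All tests and non-overlap counts below take the 5 wild-type mice as independent.

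In the chain, complex I oxidises NADH and complex II oxidises succinate, both passing electrons to ubiquinone. Complex III hands them to cytochrome c, complex IV reduces oxygen with them, and complex V makes ATP with the proton gradient. Proximal tubules and thick ascending limbs are the segments of the kidney richest in mitochondria, because they transport most of the filtered sodium.

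Gene counts per mouse ranged from 14892524 to 27459962, with medians of 19961466 in wild type, 20562148 with PBS and 19898000.5 with RGLS4326. Values are CPM, gene counts relative to the library's total and scaled by edgeR's TMM factors, and a member passed when its adjusted p was under 0.05 over all 15185 genes tested (edgeR's quasi-likelihood test). One library stood apart from its group. RGLS4326 mouse 9 had the lowest summed level of the injured tubule markers among treated mice, 134 CPM, where wild-type mice had 95.8 to 135 CPM and PBS mice 439 to 1672 CPM. Its 10 proximal tubule markers summed to 22938 CPM, inside the wild-type range of 22424 to 25355 CPM and above the PBS range of 5997 to 12371 CPM. It was the highest treated mouse for 53 of the 87 members. Counts of members with RGLS4326, and the members that passed in that comparison and are given with values, are therefore also given without it.

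Short sequences place the drug's target beside the members. The seed of miR-17-5p, bases 2 to 8, stands in capitals (RefSeq, GRCm38.p6, chr14:115043684-115043706, plus strand).
mmu-miR-17-5p: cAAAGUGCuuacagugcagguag
The longest annotated 3′ untranslated region (UTR) of each member was searched for the 7 bases that pair with this seed. A match was present in 3 of 87 members (3.45%) and in 13.8% of the 14425 genes with a 3′ UTR; members' 3′ UTRs were also shorter, with a median of 197 bases against 1133 bases. The matches, in capitals with up to 10 bases on each side, lay in the last exon of Sdhd (chr9:50597068-50597074, minus strand), of Ndufa10 (chr1:92439403-92439409, minus strand) and of a long transcript of Ndufb2 (chr6:39603296-39603302, plus strand).
Sdhd: cctgggtgcaGCACTTTgattgtgtgc
Ndufa10: acccacccctGCACTTTgggtctctca
Ndufb2: caattacataGCACTTTttggggggtt
A match is a run of letters and was not tested as a binding site.

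Promoters were searched on both strands for exact matches to motifs of 4 factors known to bind genes of mitochondrial proteins, in windows from 250 bases before to 50 bases after the RefSeq start. These windows were found for 72 of the 87 members. The NRF1 motif GCGCATGCG, which can match both strands at one place, was present in 10 members (13.9%) and in 1.95% of all 27025 genes with a window. Motifs of ETS factors (CCGGAAG) were found in 17 members (23.6%) against 9.93% of all genes. YY1 motifs (AAGATGGCG) occurred in 7 members (9.72%) against 1.64%, and ERR motifs (TCAAGGTCA) in 2 members, Sdhd and Atp5g3 (2.78%), against 0.466%. The windows below belong to members whose values are described next, with the match in capitals (GRCm38.p6, written along the gene's strand): the NRF1 matches of Ndufaf4 (chr4:24897962-24897986) and Uqcrc1 (chr9:108936670-108936694), and the ERR matches of Sdhd (chr9:50603800-50603821) and Atp5g3 (chr2:73911362-73911386), read as the reverse complement.
Ndufaf4: agatgtctGCGCATGCGcctgtgcg
Uqcrc1: tccgctctGCGCATGCGcagcgcgg
Sdhd: ttgtagagTGACCTTGAgccct
Atp5g3: ttacaaagTGACCTTGAgcgtcttc
In PBS against wild type the 10 members with an NRF1 match had a median of −0.21 on the log2 scale, those 62 without it −0.32, and the 17 with an ETS match had −0.27 against −0.31 for the 55 without. The 7 with a YY1 match had −0.26 against −0.31, and the 2 with an ERR match had −0.58 against −0.31. Members with and without a match were not tested against each other.

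Most members were lower in cystic kidneys. In PBS mice 69 of 87 members (79.3%) fell and 5 rose against wild type, where 36.6% of all genes tested fell and 37.7% rose. The members' median log2 fold change was −0.32, against 0.01 for all genes. Of the members, 21 fell past a log2 fold change of −0.5, as did 17.8% of all genes. For 38 members every PBS mouse lay below every wild-type mouse, against 21.9% of all genes, and they comprised 16 genes of complex I, 4 of complex II, 4 of complex III, 3 of complex IV and 11 of complex V. For 1 member, Cox6b2, every PBS mouse lay above every wild-type mouse, as for 20.3% of all genes.

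The complexes differed in their median fall, a difference that was not tested. Complex II had a median of −0.54 on the log2 scale (4 of 4 members fell), complex V −0.39 (15 of 17 fell), complex III −0.36 (7 of 8 fell), complex I −0.31 (33 of 43 fell and 2 rose) and complex IV −0.22 (10 of 15 fell and 3 rose). With each subunit given equal weight, complex II stood at a mean log2 difference of −0.55 ± 0.20 (SD, n = 12) from the wild-type mean in PBS mice and complex IV at −0.20 ± 0.14. All 12 PBS mice lay below every wild-type mouse for complexes II, III and V, 11 did for complex I and 10 for complex IV.

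**Figure D1:**
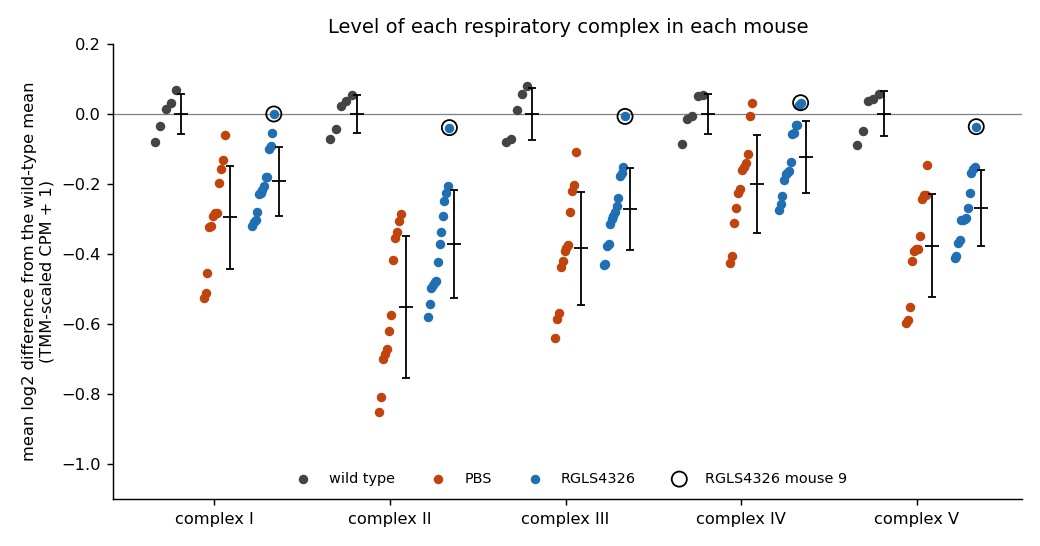
Mean log2 difference from the wild-type mean (y axis, log2 of TMM-scaled CPM + 1) over the subunits of complexes I to V (x axis) in each of 5 wild-type, 12 PBS and 14 RGLS4326 mice, ordered by value within a group, with the group mean and SD as black bars. PBS mice average −0.55 for complex II and −0.20 for complex IV, and the ringed RGLS4326 mouse 9 lies at the wild-type level in every complex. With library totals in place of TMM the median of all genes moves from 0.01 to 0.38 and the members move with it.

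This direction depends on the scaling. TMM corrects for the composition of each library, and the 10 genes most abundant in wild-type kidney took 14.2% to 15.1% of gene counts in wild-type mice, 7.26% to 12.5% in PBS mice and 10.2% to 14.1% in RGLS4326 mice. With library totals alone, the median of all genes moved from 0.01 to 0.38 and the members' median from −0.32 to 0.04, with 23 members lower and 32 higher. The shares of all genes called with library totals are not given here, so these counts are no result about the members. Of the 74 members called with TMM, 34 changed sign, each a fall that became a value above 0. Another scaling shifts all genes by nearly the same amount, so the distance of the members from all genes could hardly move. It was −0.33 with TMM and −0.34 with library totals. For the same reason 82 of 87 members lay below the median of all genes under both, and neither value tests the scaling. As a plain share of gene counts, the 76 subunits of the 5 complexes together made up 2.24% to 2.47% in the 5 wild-type mice (mean 2.35%), 2.01% to 2.46% in the 12 PBS mice (2.20%) and 2.10% to 2.44% in the 14 treated mice (2.23%), and these ranges overlapped. The falls below are therefore changes relative to the other genes of the library.

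**Figure D2:**
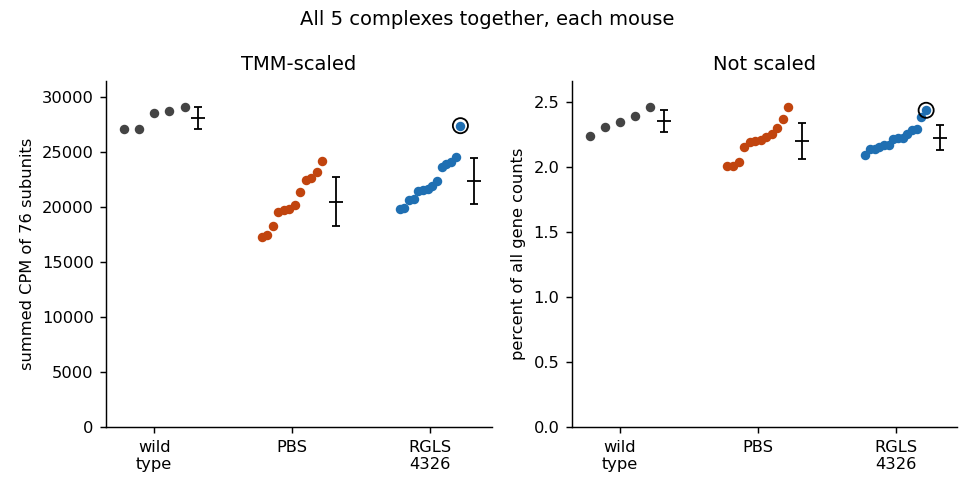
Summed level of the 76 subunits of complexes I to V in each mouse (points ordered by value; bars show mean and SD), as TMM-scaled CPM (left) and as the percent of all gene counts without scaling (right). The left panel separates PBS from wild-type mice, 17303 to 24186 CPM against 27070 to 29131 CPM, whereas on the right the groups overlap, 2.01% to 2.46% against 2.24% to 2.47%.

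Within complex I, the assembly factors Ndufaf4 and Ndufaf6 and the core subunit Ndufs1 fell most. Ndufaf4 (chr4:24898083-24905001 of GRCm38, plus strand), which acts early in complex I assembly, read 62.3, 65.5, 69.2, 73.6 and 60.3 CPM in wild-type mice 1 to 5. PBS mice read 23.5 to 46.2 CPM with a median of 33.2 CPM, so that no PBS mouse reached the wild-type range. The log2 fold change was −0.97 (standard error 0.120, adjusted p = 5.84e-08). Ndufaf6, needed for synthesis of the ND1 subunit, fell by 0.78 (adjusted p = 1.53e-07, standard error 0.104), from 22.9 to 27.3 CPM in wild type to 12.2 to 18.4 CPM with PBS. Ndufaf1, a factor of the membrane arm, fell by 0.40. Of the 7 assembly factors, 5 fell, Ndufaf3 did not pass, and Ndufaf5, a factor that modifies the core subunit Ndufs7, was higher in PBS mice (log2 fold change 0.36, standard error 0.0679, adjusted p = 2.33e-05). Its levels were 14 to 19.4 CPM in wild type and 17.8 to 23.5 CPM with PBS, and the groups overlapped.

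Among the 7 core subunits, 6 fell. Ndufs1 (chr1:63143596-63176833, minus strand), the largest subunit and a carrier of iron-sulfur clusters, read 498, 470, 507, 503 and 475 CPM in wild-type mice. PBS mice lay between 202 and 331 CPM with a median of 273 CPM, well below them. The log2 fold change was −0.86 (standard error 0.119, adjusted p = 2.60e-07), and Ndufv1, which binds NADH, fell by 0.50. The 29 accessory subunits had a smaller median of −0.28, with 22 lower, 1 higher and 6 that did not pass. Ndufa10, Ndufb3, Ndufab1 (the mitochondrial acyl carrier protein) and Ndufb6 fell most, by 0.57, 0.54, 0.52 and 0.52. Ndufa7 was the accessory subunit that rose (0.27, adjusted p = 0.00178), from 86.2 to 99.7 CPM in wild type to 88.7 to 124 CPM with PBS. Ndufs5 was counted at a few CPM only, and the part of uncounted multiply aligned reads in this level was not tested.

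Complex II, the enzyme shared with the tricarboxylic acid cycle, fell as a whole. Sdhd (chr9:50596357-50603812, minus strand), a membrane anchor whose promoter and 3′ UTR matches are printed above, read 423, 413, 431, 434 and 410 CPM in wild type. The PBS mice read 223 to 326 CPM with a median of 263 CPM, all below wild type. Its log2 fold change was −0.63 (standard error 0.0884, adjusted p = 3.58e-07). The other anchor, Sdhc, fell by 0.49, the iron-sulfur subunit Sdhb by 0.59 and the flavoprotein Sdha by 0.45, and no PBS mouse overlapped wild type for any of the 4 genes.

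In complex III the core proteins and the Rieske protein fell most. Uqcrc1 (chr9:108936633-108949623, plus strand), a core protein, read 727, 681, 756, 736 and 684 CPM in wild-type mice. With PBS it read 359 to 551 CPM, median 457 CPM, without overlap. Its log2 fold change was −0.65 (standard error 0.0906, adjusted p = 2.95e-07), and those of Uqcrc2 and of the Rieske iron-sulfur protein Uqcrfs1 were −0.64 and −0.60. The 5 small accessory subunits had a median of −0.20. Uqcrb, the ubiquinone-binding protein, fell by 0.34, although with library totals it was at 0.02, and Uqcrh, the hinge protein, did not pass (−0.02). Uqcrh has 2 pseudogenes named after it in GENCODE, while Atp5c1, Atp5k and Ndufab1, which passed, have 1 each. The part of such copies in these values was not tested.

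Complex IV had the median closest to 0 and 3 of the 5 rises. Ndufa4 read 503 to 567 CPM in wild type and 342 to 486 CPM with PBS, which is a change of −0.43 (adjusted p = 9.14e-06). Cox7b (X chromosome, 106015700 to 106022450, plus strand) read 294, 284, 291, 288 and 550 CPM in wild-type mice, so that mouse 5 lay apart from the other four. PBS mice read 184 to 263 CPM. The log2 fold change of −0.59 became −0.35 without wild-type mouse 5, and every PBS mouse still lay below every wild-type mouse. Cox5a and Cox5b fell by 0.34 and 0.32, Cox7a2 by 0.32, Cox8a by 0.22, Cox6a1 by 0.21 and Cox6b1 by 0.17, whereas Cox6c did not pass (−0.13). With library totals all 6 changed sign, and Cox5a, Cox5b, Cox7a2, Cox8a, Cox6a1 and Cox6b1 stood at 0.02, 0.04, 0.04, 0.14, 0.15 and 0.19. Cox7a2l, which joins complexes III and IV, was higher by 0.14 (adjusted p = 0.0299), a call that was lost within each index series (0.03, 0.21 and 0.23 in series 1 to 3) and without PBS mouse 9 or wild-type mouse 3, 4 or 5 (0.13 to 0.14). Cox6a1, Cox6b1 and Cox8a did not pass within any index series either. The call of Cox6a1 was also lost without wild-type mouse 3 (−0.17). That of Cox6b1 was lost without PBS mouse 2 or 6, without wild-type mouse 1 or 3 (−0.16 to −0.15), and with only PBS and wild-type mice in the fit (−0.15).

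In complex V all 5 subunits of the catalytic head and all 4 of the peripheral stalk fell. Atp5b, the catalytic β subunit and the member with the highest level per length (2336 CPM per kb of transcript in wild type), read 4605, 4362, 4634, 4534 and 4247 CPM in wild type. PBS mice lay at 2126 to 3199 CPM with a median of 2620 CPM, below all 5. The log2 fold change was −0.73 (standard error 0.10, adjusted p = 2.33e-07), and the α subunit Atp5a1 and γ subunit Atp5c1 fell by 0.66 and 0.51. Atp5f1 (chr3:105942698-105960099, minus strand), subunit b of the peripheral stalk, fell by 0.68 (standard error 0.0990), from 608 to 667 CPM to 303 to 479 CPM. The largest falls belonged to Atp5sl (−0.86, adjusted p = 9.50e-08) and Atp5s (−0.75, adjusted p = 1.84e-07), related proteins that were placed here by symbol only. Membrane subunits Atp5k, Atp5l and Atp5j2 fell by 0.36, 0.30 and 0.15, and Atp5l has 2 pseudogenes named after it. With library totals these read 0.003, 0.06 and 0.21, and Atp5e of the head and Atp5h and Atp5o of the stalk also changed sign (0.16, 0.11 and 0.07).

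**Figure D3:**
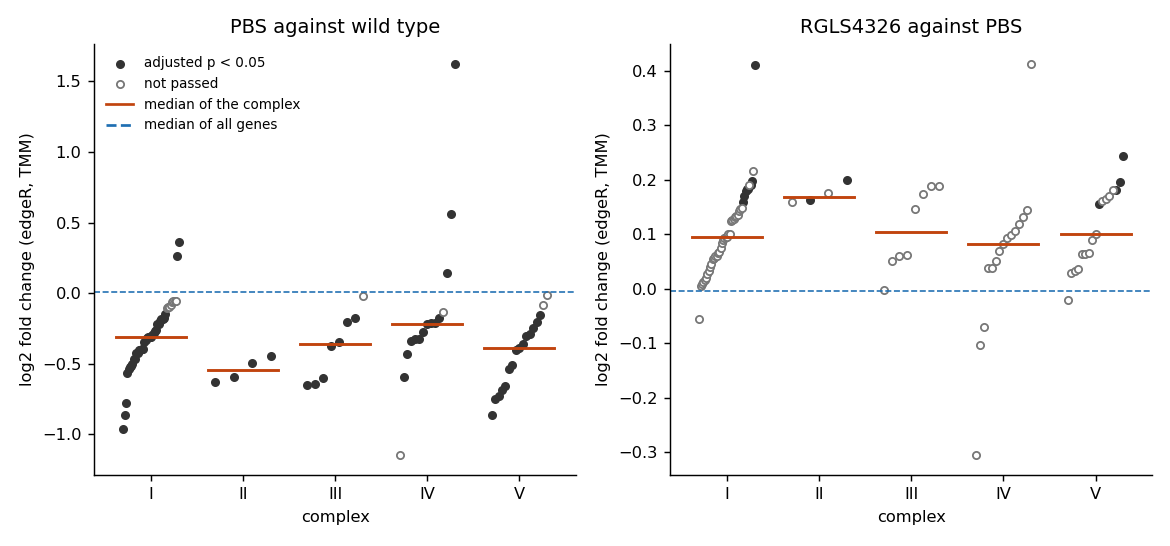
Log2 fold change of each of the 87 members (y axis, edgeR with TMM), grouped by complex I to V (x axis), in PBS against wild type (left) and RGLS4326 against PBS (right); filled points have an adjusted p under 0.05, red lines are complex medians and the dashed line is the median of all genes. On the left 82 of 87 members lie below the dashed line and 69 fell; on the right 82 lie above it and 14 rose. With library totals the dashed lines stand at 0.38 and −0.12 and the members move with them.

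**Figure D4:**
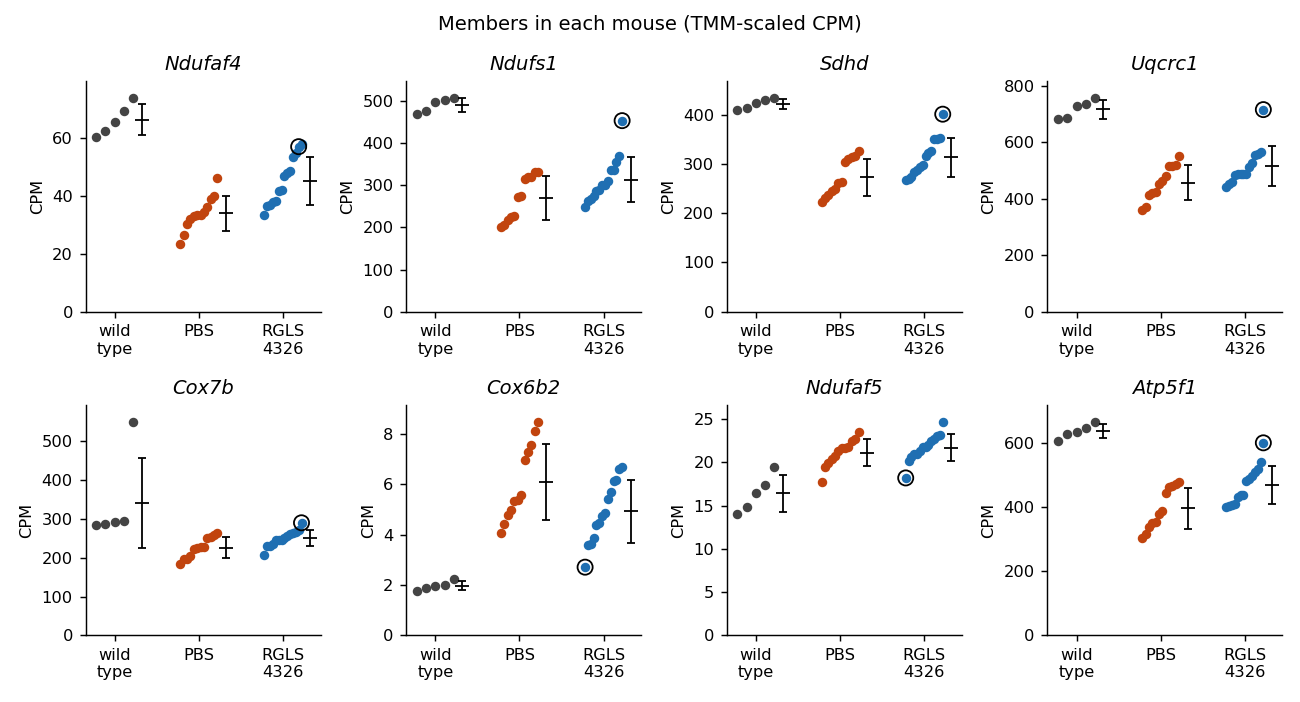
CPM (y axis, TMM-scaled) of 8 members in each mouse by group (x axis), ordered by value, with mean and SD as black bars and RGLS4326 mouse 9 ringed. Ndufaf4, Ndufs1, Sdhd, Uqcrc1, Cox7b and Atp5f1 are lower in every PBS mouse than in any wild-type mouse, Cox6b2 is higher in every PBS mouse, and 1 wild-type mouse reads 550 CPM for Cox7b.

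Several isoforms of the same subunit differed in their change. Ratios within a mouse were taken as log2 of CPM + 1, in which library scaling cancels for abundant genes but not for isoforms of a few CPM. The c-ring of complex V is made of identical mature proteins encoded by Atp5g1, Atp5g2 and Atp5g3. Atp5g3 (chr2:73908447-73911326, minus strand) read 863, 832, 890, 888 and 839 CPM in wild type and 481 to 755 CPM with PBS, a log2 fold change of −0.54 (standard error 0.0858). Atp5g1 and Atp5g2 did not pass, at −0.01 and −0.09. The log2 ratio of Atp5g2 to Atp5g3 was −3.76 ± 0.06 (SD, n = 5) in wild type and −3.30 ± 0.18 (SD, n = 12) with PBS, a difference of 0.46 (two-sided exact permutation p = 0.000323, the smallest this design can give; adjusted 0.00144 over 21 tests of 7 pairs in 3 comparisons). For Atp5g1 to Atp5g3 the ratio rose by 0.55, with the same p. That p takes the 5 wild-type mice as independent, the close libraries of mice 3 and 4 included. Wild-type mouse 5 read 148 CPM for Atp5g1 where the other four read 219 to 237 CPM, and without it the difference was 0.43 (adjusted exact permutation p = 0.00385).

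Ratios of 3 complex IV pairs were also higher. Cox6b2, the testis isoform of Cox6b1, read 1.95, 1.78, 2.01, 2.24 and 1.87 CPM in wild-type mice and 4.08 to 8.48 CPM with PBS, and the groups did not overlap. The log2 fold change was 1.63 (standard error 0.204, adjusted p = 6.49e-08), yet per kb Cox6b2 still stood at 14 CPM against 682 CPM for Cox6b1 in PBS mice. Ndufa4l2, a hypoxia-inducible paralog of Ndufa4, read 1.90 to 4.52 CPM in wild type and 4.04 to 7.17 CPM with PBS, with overlap (log2 fold change 0.56, adjusted p = 0.00250). The ratio of Cox6b2 to Cox6b1 rose by 1.41 (the fold changes of 1.63 and −0.17, without the added 1 CPM, lie further apart), that of Ndufa4l2 to Ndufa4 by 0.92 (both with exact permutation p = 0.000323, adjusted 0.00144) and that of Cox4i2 to Cox4i1 by 0.37 (adjusted p = 0.0265, exact permutation test). Cox4i2 was near 1 CPM in every group, so its ratio rests on few counts. The ratios of the heart and muscle isoforms did not pass. Cox7a1 fell by 0.28, and it passed in 36 of 42 alternatives. It was 0.08 higher with library totals, and its call was lost, among others, without wild-type mouse 5 (−0.16) or mouse 4 (−0.27). Cox7a2 fell by 0.32, and the ratio of Cox7a1 to Cox7a2 differed by 0.08 (adjusted p = 0.536, exact permutation test). Without wild-type mouse 5 that ratio differed by 0.20 (adjusted exact permutation p = 0.0210). Cox8b ranged from 0 to 4.56 CPM among PBS mice and did not pass. The adipocyte markers summed to 0.0997 to 103 CPM with PBS and the striated muscle markers to at most 1.46 CPM in any mouse, and the part of surrounding tissue in Cox8b was not tested.

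**Figure D5:**
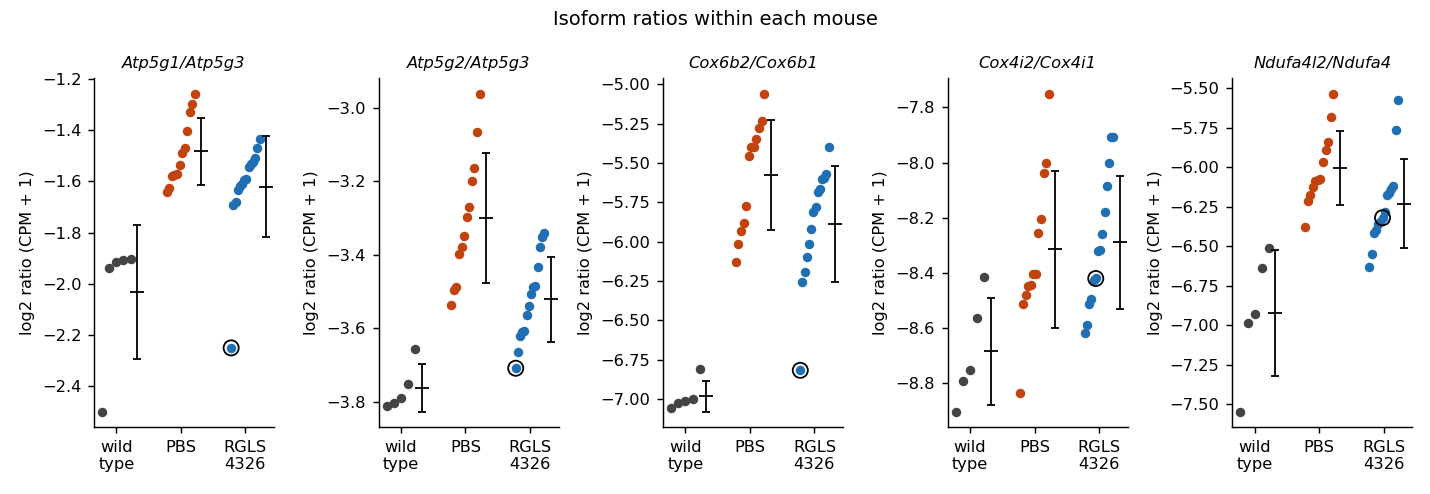
Log2 ratio of the CPM + 1 of 5 isoform pairs in each mouse (y axis) by group (x axis), ordered by value, with mean and SD as black bars and RGLS4326 mouse 9 ringed. Ratios to Atp5g3 lie higher with PBS than in wild type by 0.55 (Atp5g1) and 0.46 (Atp5g2), and lower with RGLS4326 than with PBS by 0.14 and 0.22, or by 0.09 (which did not pass) and 0.21 without mouse 9.

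A small set of members was higher with treatment, by small amounts. With RGLS4326, 14 of 87 members (16.1%) rose against PBS and 0 fell by edgeR or DESeq2, where 9.15% of all genes rose and 6.66% fell. The members' median was 0.10 against −0.004 for all genes, and no member passed a log2 fold change of 0.5. An unadjusted p under 0.05 was found for 39 of 87 members and for 5595 of the 15185 genes tested. The 14 were Ndufaf4, Ndufaf1, Ndufc2, Ndufc1, Ndufa1, Ndufa10, Ndufb6 and Ndufab1 of complex I, Sdhc and Sdhd of complex II, and Atp5f1, Atp5g3, Atp5c1 and Atp5j of complex V. In complexes III and IV edgeR called 0 members, with medians of 0.10 and 0.08. There 4 of 8 and 3 of 15 members had an unadjusted p under 0.05, to be read against the count of all genes given above. DESeq2 called 2 in complex III and 0 in complex IV, and 18 members in all, counts given without the share of all genes. Without RGLS4326 mouse 9 the count was 3, Ndufaf4, Ndufc2 and Ndufa1, against 4.66% of all genes, and the members' median was 0.09. Leaving out each mouse in turn gave 2 to 24 members, counts given without the share of all genes in each fit. With library totals the median of all genes was −0.12 and the members' median −0.01, with 2 higher and 4 lower. The shares of all genes called with that scaling are not given here, so these counts are no result about the members. Because the scaling shifts all genes by nearly the same amount, 82 members lay above the median of all genes under both. Within each of the 3 index series of the deposited library names 0 members passed, with medians of 0.04, 0.12 and 0.14; 0, 3 and 12 members had an unadjusted p under 0.05, and no gene of the whole table passed there either.

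Ndufaf4 had the largest rise among the 14 members that passed. The 14 treated mice read 33.3 to 57.7 CPM with a median of 44.3 CPM, against 23.5 to 46.2 CPM with PBS, and the groups overlapped. Its log2 fold change was 0.41 (standard error 0.0929, adjusted p = 0.0105), and 0.38 without mouse 9 (adjusted p = 0.0162). Ndufc2, an accessory subunit of the membrane arm, read 59.0 to 72.6 CPM with RGLS4326 against 47.6 to 65.4 CPM (0.18, standard error 0.0485, adjusted p = 0.0202; 0.17 without mouse 9). Atp5f1 read 401 to 601 CPM with a median of 461 CPM against a PBS median of 384 CPM, a log2 fold change of 0.24 (adjusted p = 0.0333). Without mouse 9 it was 0.21 and did not pass (adjusted p = 0.0584). Sdhd and Sdhc read 268 to 401 CPM and 283 to 395 CPM, with log2 fold changes of 0.20 and 0.16 (adjusted p = 0.0439 and 0.0451) that became 0.17 and 0.14 and did not pass without mouse 9. Atp5g3 rose by 0.20 (0.17 without mouse 9, when it did not pass, adjusted p = 0.0713), and its share of the c-ring genes was higher: the ratio of Atp5g2 to Atp5g3 fell by 0.22 (permutation p = 0.000720, adjusted 0.00189; 0.21 without mouse 9, adjusted 0.00313) and that of Atp5g1 to Atp5g3 fell by 0.14 (adjusted permutation p = 0.0446), which became 0.09 and did not pass without mouse 9 (adjusted permutation p = 0.0755). The ratio of Cox7a1 to Cox7a2 differed by −0.09 (adjusted permutation p = 0.0968) and passed without mouse 9, at −0.10 (adjusted permutation p = 0.0331).

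The 7 catalytic core subunits of complex I had a median of 0.12, and 5 of the 7 had an unadjusted p under 0.05 without passing the adjusted one. Of the 15185 genes tested, 5595 had an unadjusted p under 0.05. Ndufs1 had the highest value among them, 0.22 (adjusted p = 0.0891), and 0.17 without mouse 9. In the head of complex V, Atp5c1 passed at 0.18 (0.16 without mouse 9, when it did not pass), whereas Atp5a1 and Atp5b stood at 0.17 and 0.16 (adjusted p = 0.0868 and 0.116), and at 0.13 and 0.12 without mouse 9. In complex III, Uqcrb and Uqcrfs1 stood at 0.15 and 0.19 (adjusted p = 0.0538 and 0.0544), and at 0.13 and 0.15 without mouse 9. Among the genes that rose in PBS mice, Cox6b2 stood at −0.31 with RGLS4326 (adjusted p = 0.0912), Ndufa4l2 at −0.10 and Ndufaf5 at 0.04. A match was held by 2 of the 14 members that passed (14.3%), a share near the 13.8% of all genes. Of the 3 members with a miR-17 seed match printed above, Sdhd and Ndufa10 rose, by 0.20 and 0.17, and Ndufb2 stood at 0.09 (adjusted p = 0.11). Without mouse 9 Ndufa10 did not pass either.

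Most members were also lower in treated than in wild-type mice. Against wild type, 57 members were lower and 4 higher with RGLS4326, where 32.4% of all genes were lower and 32.5% higher, and the median was −0.22. Without mouse 9 the counts were 58 and 4, against 33.5% and 34% of all genes. Every complex had a median below 0, from −0.38 in complex II to −0.18 in complex IV. For 7 members (against 9.75% of all genes, a share near that of the members) every treated mouse, mouse 9 included, lay below every wild-type mouse: Ndufaf4, Ndufs1, Ndufb5, Sdhd, Atp5f1, Atp5g3 and Atp5s. Cox6b2 was higher in every treated mouse, as were 5.04% of all genes, at 2.71 to 6.69 CPM, with a log2 fold change of 1.32 (adjusted p = 3.08e-06). This comparison shares its groups with the other two, so its values are not independent of them. With library totals the counts were 16 lower and 22 higher. The shares of all genes called with that scaling are not given here, so these counts are no result about the members. Fewer members passed within index series 2, which holds 2 wild-type mice, the close pair 3 and 4.

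Neighbouring genes of mitochondrial metabolism changed in the same comparisons. Their values are on the TMM scale too, and with library totals the median of all genes stands at 0.38 in PBS against wild type and −0.12 in RGLS4326 against PBS. All 13 genes of the tricarboxylic acid cycle fell in PBS mice (median −0.65; Dlst −0.73, Dld −0.88), and 9 of 13 rose with RGLS4326 (median 0.21; Idh3a 0.23, Cs 0.16). Without mouse 9, 2 of 13 rose (median 0.17). Of 33 assembly factors outside the symbol patterns, 23 fell and 1 rose in PBS mice (median −0.41), with Atpaf1, which assembles the F1 head, at −1.23 and Coa5, a complex IV factor, at −1.04. With RGLS4326, 9 of the 33 rose, and 6 without mouse 9. Those with the smallest p were Sco1 (0.25), a copper chaperone of complex IV, and Tmem70 (0.33), which assembles the c-ring. Cytochrome c1 and cytochrome c fell by 0.53 and 0.66 in PBS mice, and Cycs rose by 0.23 with treatment (adjusted p = 0.0450), but did not pass without mouse 9 (0.21, adjusted p = 0.0750). Of 7 genes of uncoupling and ADP/ATP exchange, 3 fell and 1 rose in PBS mice (median −0.15), and 1 rose with RGLS4326. That gene, the ADP/ATP carrier Slc25a5, fell by 0.86 in PBS mice and rose by 0.32 with RGLS4326 (0.27 without mouse 9). Of 10 genes of import and the outer membrane, 9 fell, among them Tomm70a (−0.71) and Tomm40 (−0.33), and 2 rose with RGLS4326 (neither passed without mouse 9).

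Most regulators of these genes were also lower. Of 14 regulators of mitochondrial biogenesis, 9 fell and 2 rose in PBS mice. Ppara, the receptor that drives fatty acid oxidation, fell by 1.5, the coactivators Ppargc1b and Ppargc1a by 1.07 and 0.56, and the estrogen-related receptors Esrra and Esrrg by 0.65 and 0.93. Nrf1 and Pprc1 rose, by 0.21 and 0.44. With RGLS4326, 3 rose, Esrra (0.23), Tfb2m (0.24) and Polrmt (0.13), the last pair being parts of the mitochondrial transcription machinery. Without mouse 9 Tfb2m was the 1 regulator that passed (0.22, adjusted p = 0.0327). Members were not tested for a dependence on any of these regulators.

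Cell type markers moved in the same comparisons. All 10 proximal tubule markers fell in PBS mice with a median of −1.27 (Slc22a6 −1.25, Slc13a3 −1.86), a larger fall than that of any complex, and 3 of 10 rose with RGLS4326 (median 0.39), or 1 of 10 without mouse 9 (median 0.32). Of 4 thick ascending limb markers 2 fell and 1 rose, and of 3 distal convoluted tubule markers 2 fell, with 1, Pvalb, higher with RGLS4326 (1.27, adjusted p = 0.0400), which became 0.42 and did not pass without mouse 9. The 3 podocyte markers had a median of −0.22 and did not pass, and 1 of 4 endothelial markers fell. Among 4 intercalated cell markers 2 fell and 1 rose, and among 5 smooth muscle markers 1 fell and 3 rose, with 1 lower with RGLS4326. All 4 principal cell markers rose (median 1.59; Scnn1g 1.26, Fxyd4 1.91), and 3 of them fell with RGLS4326, with and without mouse 9. All 5 macrophage markers, 5 lymphocyte markers and 4 injured tubule markers rose in PBS mice, with medians of 3.02, 1.56 and 2.40, as did 4 of 5 fibroblast markers (2.55). With RGLS4326, 1 of these 19 genes passed, an injured tubule marker that fell, and it did not pass without mouse 9. The macrophage markers summed to 155 to 166 CPM in wild type and 342 to 603 CPM with PBS. The part of these cell types in the members' levels was not tested. Transcript length moved with the size of the fall as well. The 29 shortest members (322 to 606 bases) had a median of −0.21, the middle 29 −0.32 and the 29 longest (1166 to 3632 bases) −0.50, while all genes of those lengths had medians of 0.17, 0.13 and 0.05; its part was not tested.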

How the data were processed

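Whole kidneys were sequenced as polyA-selected stranded libraries. Per the study's methods and the submitters' processing notes, the authors checked reads with FastQC 0.11.2, trimmed them with Trim Galore, aligned them with STAR to GRCm38 and counted uniquely aligned reads per gene with HTSeq 0.6.1; the annotation is not given in the sources used here. The deposited files hold raw counts per gene, 1 file per mouse (n = 31). The 5 summary rows of each file were left out. Reads aligned to several places made up 17.8% to 21.2% of a file and were not counted, which lowers genes with close copies.

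Groups came from the labels, and equal replicate numbers in different groups were taken to name different animals. Each library was counted as an independent animal, wild-type mice 3 and 4 included. Counts were filtered with filterByExpr and TMM factors were applied. The quasi-likelihood model (glmQLFit, glmQLFTest; edgeR 4.0.16 under R 4.3.3) had 1 coefficient per group over all mice. Standard errors are the log2 fold change divided by the root of F, and adjusted p-values are Benjamini-Hochberg over all genes tested. Isoform ratios (log2 of CPM + 1) were compared by two-sided permutation, exact against wild type and with 100000 resamples otherwise. Lengths and 3′ UTRs came from GENCODE vM21. Both tests were tested on simulated data. Alternatives were other filters and scalings, DESeq2 1.42.0, the index series (restarts of the library numbers in the deposited names), a replicate block and each mouse left out.

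The members and gene lists were chosen with earlier results of these data known. The rule named, per complex, the 2 members with the smallest p in PBS against wild type and in RGLS4326 against PBS, the 2 largest rises and falls per comparison, up to 5 members opposite to most, the isoform pairs, assembly factors that passed with RGLS4326, and 2 genes per other list. Chosen after their values were seen were Atp5a1, Atp5b, Atp5c1, Atp5j, Atp5j2, Atp5k, Atp5l, Cox5a, Cox5b, Cox6c, Ndufa1, Ndufa10, Ndufab1, Ndufaf3, Ndufb2, Ndufb3, Ndufb5, Ndufb6, Ndufc1, Ndufs5, Ndufv1, Sdha, Sdhb, Uqcrc2, Uqcrh, Esrrg, Nrf1, Polrmt, Ppargc1a and Pprc1.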

Additional observations from a re-analysis of the deposited data

Results flagged for a closer look

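Among the 5 wild-type mice, 42 measures (member levels and isoform ratios) were examined for a mouse far from the others by Dixon's criterion, which chance alone meets in about 1 in 20 groups, and 4 met it. Cox7b read 550 CPM in wild-type mouse 5, where the other 4 mice read 284 to 294 CPM, and the same mouse had the lowest Atp5g1 level, 148 CPM against 219 to 237 CPM. The Atp5g1 to Atp5g3 log2 ratio was −2.50 in that mouse, and the others lay between −1.94 and −1.90. The Cox6b2 to Cox6b1 log2 ratio was −6.81 in wild-type mouse 4, above −7.06 to −7.00 in the rest. Outside this criterion, which does not cover a group of 14, RGLS4326 mouse 9 read −2.25 for the Atp5g1 to Atp5g3 ratio where the other treated mice read −1.69 to −1.44.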

How the results depend on the processing

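With library totals in place of TMM, members lower and higher numbered 23 and 32 in PBS against wild type, 4 and 2 in RGLS4326 against PBS, and 16 and 22 in RGLS4326 against wild type, and the medians reversed to 0.0428, −0.0112 and 0.0347. The sign changed for 46, 42 and 46 of the 87 members, of which 34, 0 and 23 were called with TMM. Among the members recomputed singly under every alternative, the setting reversed Uqcrb (0.0151 in PBS and 0.0520 in RGLS4326 against wild type), Cox7a2 (0.0393 and 0.0479), Cox8a (0.144 and 0.0688), Cox6a1 (0.15), Cox6b1 (0.19) and Cox7a1 (0.0815) in PBS against wild type, and Ndufaf1 (0.00777) in RGLS4326 against wild type. With a log2 fold change over 0.5 required, 21 members were lower and 2 higher in PBS mice (17.8% and 24.6% of all genes), 0 higher with RGLS4326 against PBS (0.935%), and 6 lower and 1 higher against wild type (11.3% and 20.3%). Within index series 2 and 3, 39 and 25 members were lower in PBS mice, and 3, 1 and 3 were higher in series 1 to 3. RGLS4326 against wild type had 0 lower and 0 higher in series 2 and 2 lower in series 3, and RGLS4326 against PBS had 0 higher in each series. A series holds 4 or 5 mice of each Pcy group and 2, 2 and 1 wild-type mice. Series 3 therefore takes the lone wild-type mouse to vary like the other groups. The wild-type mice of series 2 are mice 3 and 4, the closest pair of libraries within any group. The 14 members higher with RGLS4326 became 6 without a filter on low counts, 5 with only both groups compared in the fit, 13 with the series as covariate and 18 by DESeq2. The cause was not tested. In this section shares of all genes stand only beside the counts with a log2 fold change over 0.5. The other counts have no such share beside them, so they are no result about the members.

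Leaving out each mouse gave 62 to 70 members lower and 4 to 5 higher in PBS mice, 2 to 24 higher and 0 to 0 lower with RGLS4326 against PBS, and 47 to 59 lower and 3 to 4 higher against wild type, with medians from −0.34 to −0.30, 0.08 to 0.12 and −0.23 to −0.20. The RGLS4326 count moved by over 1.5 times without PBS mouse 1 (23), 2 (2), 3 (4), 5 (2), 6 (6), 7 (24), 9 (2), 10 (2) or 11 (7), or RGLS4326 mouse 3 (7), 6 (5), 8 (2), 9 (3), 10 (5) or 13 (4). Isoform ratios past the threshold numbered 4 to 6 and 5 to 5 in PBS and RGLS4326 against wild type, where only the 5 wild-type mice were left out in turn, and 1 to 4 in RGLS4326 against PBS, where each of 26 mice was. They numbered 4 in that comparison with a pseudocount of 5 CPM.

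Equal replicate numbers did not pair the mice: the mean correlation over 12 PBS and RGLS4326 pairs was −0.08, with 4 over 0.1. The replicate block left 1 member higher with RGLS4326, a count given without the share of all genes, and 0, 0 and 0 isoform ratios past the threshold. Against wild type it had 5 pairs and a smallest possible exact p of 0.0625, so no ratio could pass, and the differences were of like size (Cox6b2 to Cox6b1 1.45, Atp5g2 to Atp5g3 0.56 in PBS mice).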
